A study of Mus musculus with 48 samples.

Results

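The genes described here encode 9 proteins of the AP-1 family (Jun, Junb, Jund, Fos, Fosb, Fosl2, Batf, Batf3 and Atf3), and what was measured is the accessibility of the chromatin in and around them. ATAC-seq uses a transposase to insert adapters into open DNA, so a peak is a stretch where many insertions were sequenced. Peaks inside the body of a protein-coding gene, in whole or in part, were given to it. A peak outside all genes went to the closest one, up to 100 kb away. By that rule 57 of the 53868 peaks in the table belonged to the 9 genes, 0.106% of all: 8 to Jun, 1 to Junb, 2 to Jund, 10 to Fos, 6 to Fosb, 7 to Fosl2, 8 to Batf, 9 to Batf3 and 6 to Atf3. Of the 57, 19 overlapped a gene body and 38 lay outside one. Peaks are numbered along the chromosome within each gene, so "Fos peak 4" is the fourth from the left on the reference strand. A peak outside a gene is tied to it by distance only.

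The cells were OT-1 CD8+ T cells, whose receptor recognises an ovalbumin peptide, recovered from B16-OVA, a mouse melanoma made to express ovalbumin. All donor cells carried Cas9 and CD45.1 and had received a lentiviral guide RNA with an ametrine reporter, so the controls were transduced as well. The control guide is labelled OTC, and the labels call the others Zfp219KO and Dusp5KO. The cells entered young or aged mice 1 day before the tumour was inoculated and were sorted 15 days after it on Slamf6 and Tim-3. The sorted states were Tprog (progenitor exhausted, Slamf6+Tim-3-), Ttran (transitory effector-like, positive for both), Tterm (terminally exhausted, Slamf6-Tim-3+) and Ttad (age-associated dysfunctional, negative for both). Sample names carry an A or a Y, which was read as an aged or a young host, and the ages themselves were not given in the sources used here. In aged hosts each of the 3 guides was sorted into all 4 states with 2 libraries each, 12 groups in all. In young hosts the 3 guides were sorted into Tprog with 2 libraries each, and into Ttran and Tterm with 3 each, giving 9 groups. Each library came from 5000 to 50000 cells pooled from several mice, and which mice shared a pool was not recorded. The p-values therefore measure the spread between pooled libraries.

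AP-1 is a dimer of basic leucine zipper proteins. Jun proteins pair with themselves or with Fos proteins, Batf and Batf3 pair with Jun proteins and lack a transactivation domain, and Atf3 forms dimers that can repress. Kinases of the MAP kinase pathways switch on Jun and Fos within minutes of T cell receptor signalling, and in CD8 T cells Batf acts with Jun proteins and Irf4 at many effector genes. Dusp5, a target of one of the guides, is a nuclear phosphatase of the kinase Erk, and Zfp219 is a zinc finger protein.

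Many AP-1 genes are themselves controlled through AP-1 and cyclic AMP response sites next to their start, so the 250 bases before the start site were read from RefSeq (GRCm38.p6) for all 9 genes. The motifs TGANTCA (AP-1) and TGACGTCA (the full cyclic AMP response element) were searched on both strands and occurred in 0 of 9, against 6.75% and 1.55% of 32851 RefSeq promoters. After the sequences had been seen, a looser form of the response element, TNACNTCA, and its first part, TGACG, were searched as well. TNACNTCA occurred in 3 genes (Jun, Jund and Atf3), against 4597 of the 32851 promoters (14%). TGACG occurred in 5 genes (Junb, Fos, Fosb, Batf and Atf3), against 5836 of them (17.8%). In Atf3 the matches to these motifs overlap on the same bases. The 5 sequences below are examples and were not chosen by a single rule. Of these genes, Jun, Fosb and Batf3 hold peaks with large changes and Fos holds the steadiest peak. Fosl2, which also has no match, is not shown. Each sequence runs 5′ to 3′ on the strand of the gene, ending at the base before the start site. Capitals mark a match to TNACNTCA or TGACG, and Batf3 is shown as a gene without one.
Jun, chr4:95052223-95052472, minus strand: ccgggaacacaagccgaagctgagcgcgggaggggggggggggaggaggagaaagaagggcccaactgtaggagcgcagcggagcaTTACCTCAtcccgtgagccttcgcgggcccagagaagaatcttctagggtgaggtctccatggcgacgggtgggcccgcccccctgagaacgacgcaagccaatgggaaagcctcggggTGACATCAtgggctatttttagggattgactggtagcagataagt
Fos, chr12:85473640-85473889, plus strand: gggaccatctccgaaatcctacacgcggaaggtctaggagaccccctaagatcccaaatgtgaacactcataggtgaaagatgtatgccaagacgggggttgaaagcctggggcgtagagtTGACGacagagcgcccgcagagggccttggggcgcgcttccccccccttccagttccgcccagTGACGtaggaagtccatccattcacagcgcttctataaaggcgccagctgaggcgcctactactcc
Fosb, chr7:19310046-19310295, minus strand: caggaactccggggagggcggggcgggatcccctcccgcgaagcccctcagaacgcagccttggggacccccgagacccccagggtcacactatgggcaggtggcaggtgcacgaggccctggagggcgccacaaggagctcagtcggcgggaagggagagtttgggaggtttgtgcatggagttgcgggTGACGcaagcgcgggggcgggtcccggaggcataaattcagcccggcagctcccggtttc
Batf3, chr1:191098164-191098413, plus strand: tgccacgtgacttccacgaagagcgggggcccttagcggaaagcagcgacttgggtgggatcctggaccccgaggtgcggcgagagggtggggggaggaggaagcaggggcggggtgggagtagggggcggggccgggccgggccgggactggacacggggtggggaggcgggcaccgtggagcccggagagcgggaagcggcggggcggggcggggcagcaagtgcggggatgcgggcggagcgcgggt
Atf3, chr1:191183334-191183583, minus strand: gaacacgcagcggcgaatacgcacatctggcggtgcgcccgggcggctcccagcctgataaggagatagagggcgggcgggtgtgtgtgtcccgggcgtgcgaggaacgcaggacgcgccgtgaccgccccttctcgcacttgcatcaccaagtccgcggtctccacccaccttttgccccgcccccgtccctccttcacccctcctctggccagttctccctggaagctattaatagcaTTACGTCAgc

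In Jun the matches lay 164 to 157 and 45 to 38 bases before the start site. In Fos they lay 129 to 125 and 66 to 62 bases before it, in Fosb 60 to 56, and in Atf3 10 to 3. A match is a description of letters, and no match says only that these letters are not in this window. Peak 2 of Jun, peak 7 of Fos, peak 3 of Fosb and peak 1 of Atf3 cover the start sites next to these sequences, while the nearest Batf3 peak ends 407 bases before its start site.

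The libraries held between 5638413 and 29942755 reads in peaks, with a median of 12619905.5 in aged and 16950433.5 in young hosts. Every value in the table is a read count divided by a factor for its library, called normalized reads here. Each host age was numbered as its own set of 24 libraries, so the numbered set and the host age cannot be told apart. What the numbering stands for was not stated. All 7 CD8 T cell marker genes had a peak in their body (345.7 to 413.8 reads per kb summed over the list in aged libraries, 376.5 to 445.6 in young). Of markers of other cells, B cell genes had a body peak at 1 of 4 (70.3 to 150.0 reads per kb aged, 69.0 to 165.7 young). Myeloid genes had one at 2 of 5 (Itgam and Cd14, at 73.0 to 100.4 reads per kb aged, 98.4 to 139.1 young). Melanoma genes had a body peak at 3 of 7, at 164 to 295 reads per kb in aged and 207 to 320 in young libraries, with Dct, Tyr, Tyrp1 and Sox10 without one. The NK markers had a body peak at 1 of 2 (0 to 116.9 reads per kb aged, 0 to 59.5 young). The CD4 markers had one at 1 of 2, with none at Foxp3 (91.8 to 325.6 reads per kb aged, 154.5 to 333.4 young). A cut made by Cas9 need not change a peak, and neither of the 2 Zfp219 peaks passed the test in any single comparison of Zfp219 with OTC, while of the 17 Dusp5 peaks up to 5 per state were lower with the Zfp219 guide and up to 2 with the Dusp5 guide. Accessibility therefore gives no check of the knockout labels.

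Accessibility was spread unevenly over the 57 peaks. Mean normalized reads over the 48 libraries ran from 10.6 to 2614.5, 6 peaks had a mean under 50, and a single peak, Jun peak 7, had a library at 0. A peak covered the start site of every gene except Batf3. In reads per kb of peak, the strongest peak inside the gene was highest in Fosl2 (1217.65) and Jund (1201.51), followed by Junb (1149.96), Batf (840.776), Batf3 (833.92), Jun (759.963), Fosb (680.392), Fos (610.219) and Atf3 (576.265). Most of these strongest peaks lie over the start site, but that of Batf (peak 6, chr12:85704561-85706426) is centred 18.77 kb inside the gene and that of Batf3 (peak 3, chr1:191102632-191103288) 4.55 kb inside it.

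The peaks of a gene did not all share one pattern over the 21 groups. The median Pearson correlation between pairs of peaks of the same gene, over group means of log2(value + 1), was 0.80 for Batf3 and 0.76 for Fosb. It was 0.49 for Jun, 0.34 for Fosl2, 0.29 for Fos, 0.28 for Atf3 and 0.08 for Batf. These are descriptions, and the peaks compared share libraries, depth and normalization.

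**Figure D1:**
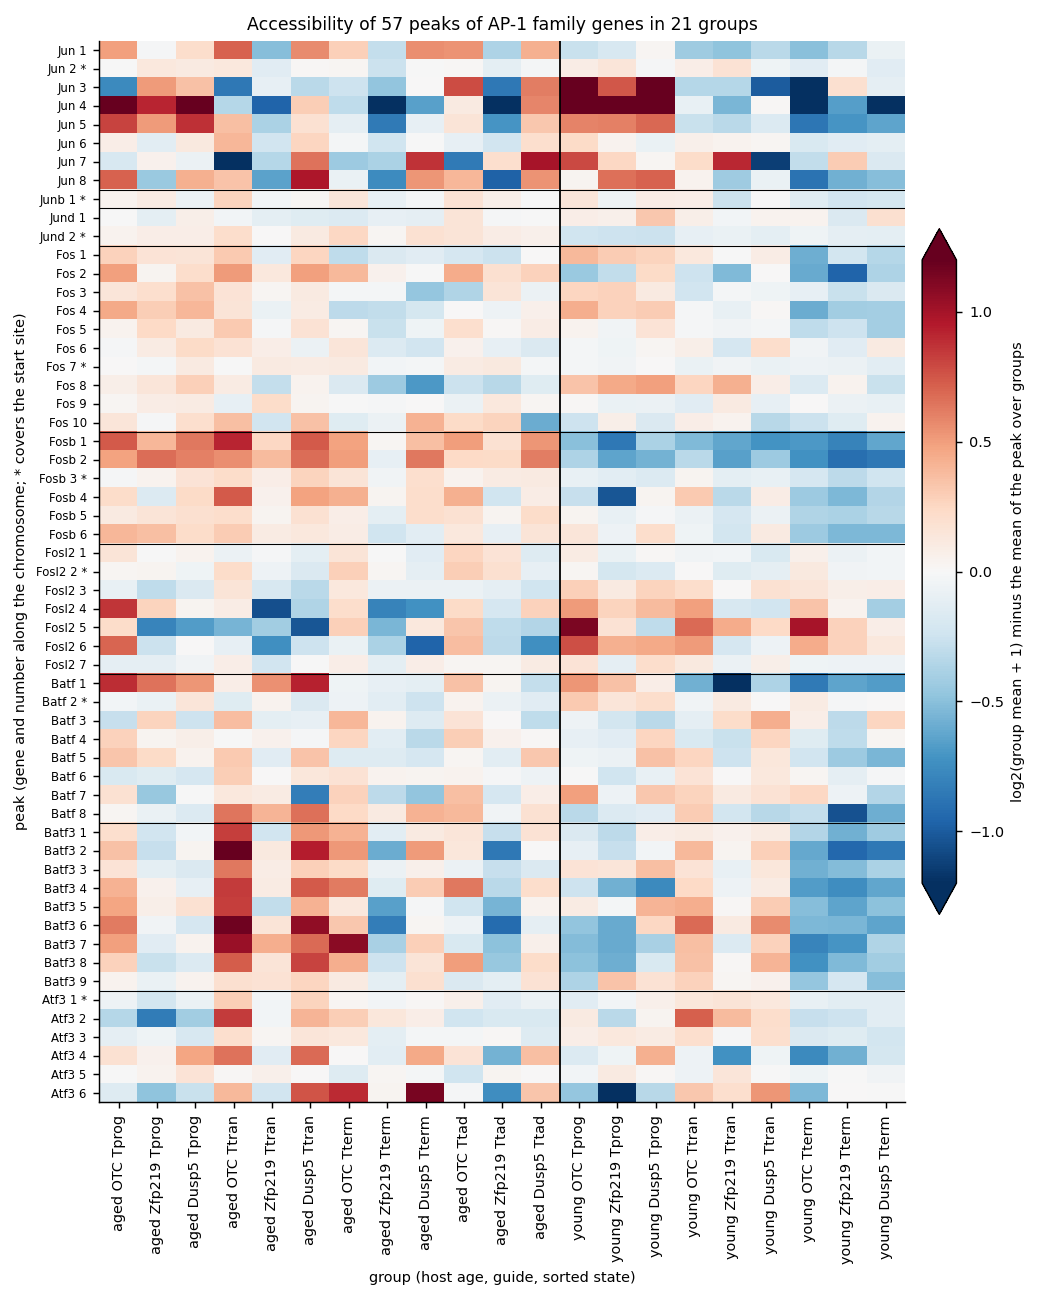
Each row is one of the 57 peaks and each column one of the 21 groups. Colour gives log2(group mean + 1) minus the average of that peak over groups. In most Batf3 and Fosb rows the aged OTC groups are redder than the young OTC groups of the same state, and several Jun rows are redder in Tprog.

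The strongest peak in each gene body is described here for every group. It stands for that peak only, since other peaks of a gene can follow another pattern. Fos peak 7, over the start site of Fos (chr12:85473031-85474997), was the steadiest: its group means ran only from 1109 (young Dusp5 Tterm) to 1311 (aged Zfp219 Ttad), a ratio of 1.18, and it passed the test in 0 of the 12 comparisons below (limma; 1 at an unadjusted p under 0.05, and 0 with edgeR). Batf3 peak 3 varied most, from 365 ± 34.4 (SD, n = 3) in young OTC Tterm to 850 ± 98.4 (SD, n = 2) in aged OTC Ttran, a ratio of 2.33. Even there, 17 of the 20 neighbouring groups in the order of means had overlapping libraries. For Jun peak 2 the highest group was young Zfp219 Ttran (2864) and the lowest aged Zfp219 Tterm (2129.6), a ratio of 1.34.

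Junb peak 1 ran from 2945 in aged OTC Ttran to 2041 in young Zfp219 Ttran, a ratio of 1.44. Jund peak 2 was highest in aged OTC Tterm (3124) and lowest in young Dusp5 Tprog (2200.2), a ratio of 1.42. Fosb peak 3 had a ratio of 1.50 between aged Dusp5 Ttran and young Zfp219 Tterm. For Fosl2 peak 2, Batf peak 6 and Atf3 peak 1 the ratios were 1.42, 1.45 and 1.43. Between 16 and 19 of the 20 neighbours overlapped for each of these genes, and the rest did not. The range of group means was widest at Jun peak 4, where they ran from 7.88 in aged Zfp219 Tterm to 135 in young Zfp219 Tprog, a ratio of 17.2.

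Among 13586 other genes, the strongest body peaks with the most similar pattern over the 21 group means were those of Cep290 (r = 0.789) and Cdk20 (0.768) for Jun and Ino80c (0.948) and Slc9a8 (0.934) for Jund. For Fos they were Ninj1 (0.842) and Mib2 (0.833), for Fosb Gm30599 (0.905) and Prdm8 (0.885), and for Fosl2 Klf13 (0.896) and Mnt (0.89). For Batf they were Ccdc88c (0.951) and Smim3 (0.934), for Batf3 Ksr1 (0.887) and Jmjd1c (0.87), and for Atf3 Aig1 (0.783) and Bsn (0.774).

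**Figure D2:**
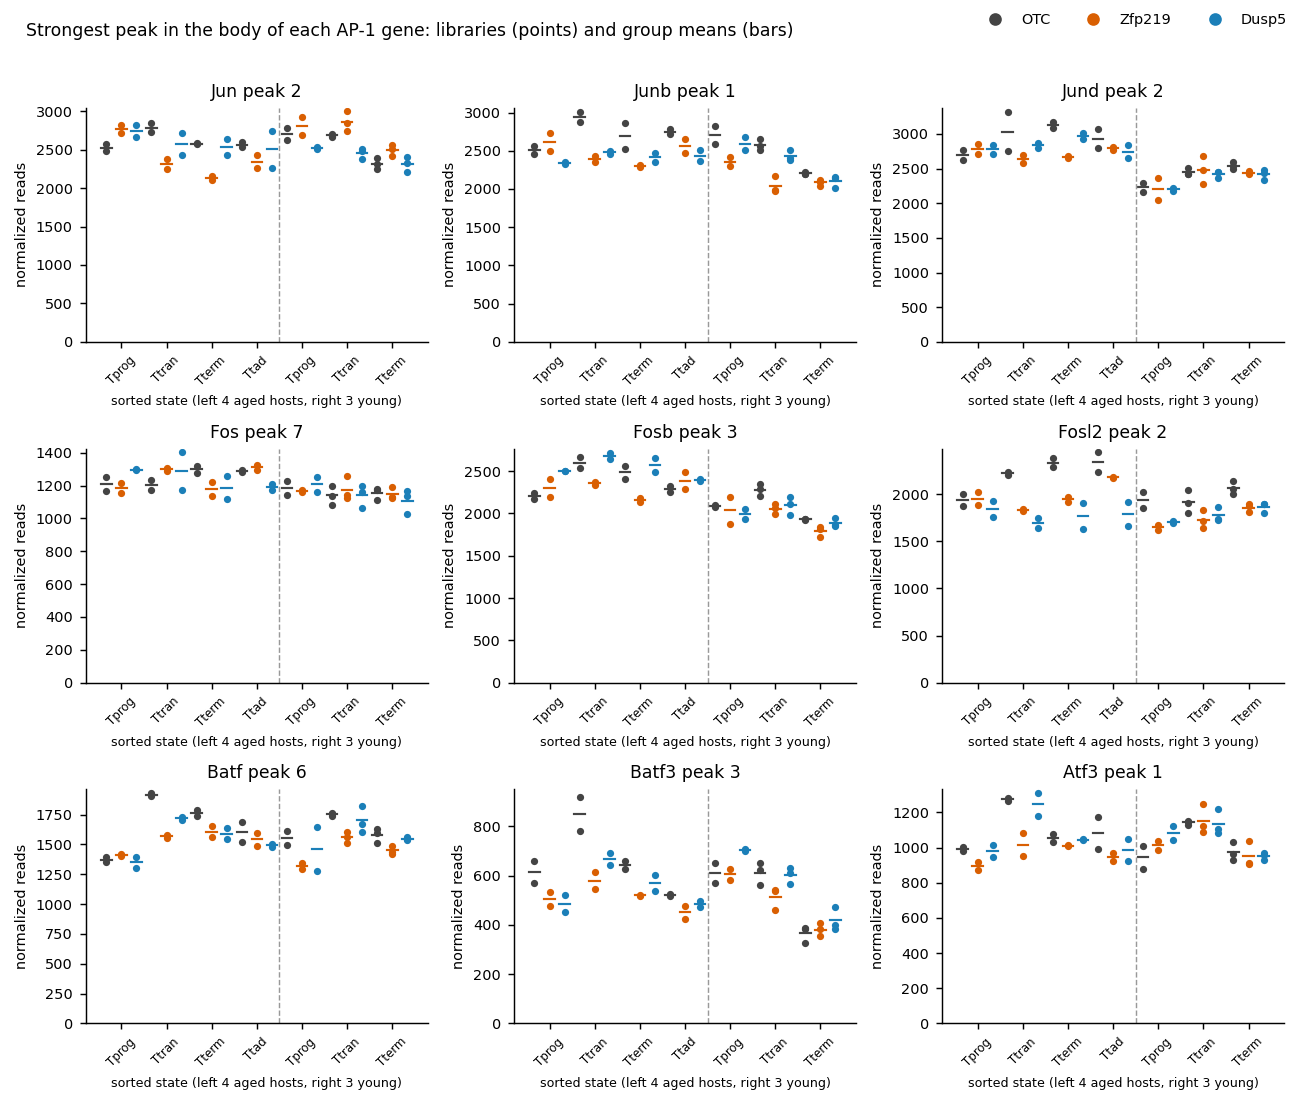
Normalized reads of the strongest body peak of each gene, with libraries as points and group means as bars, by sorted state on the x axis, with aged hosts left of the dashed line and colours giving the guide. Fos peak 7 is nearly level over all 21 groups, and Batf3 peak 3 spans 365 to 850.

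The first question was whether the sorted states differ at these genes in control cells. Differences are on the log2(value + 1) scale from limma fitted to all 48 libraries, with p-values adjusted over all 53868 peaks (Benjamini-Hochberg), and a peak is called to change at an adjusted p under 0.05. In bulk libraries, fewer cells with an open site and less opening per cell cannot be told apart. Some peaks below were picked as called ones whose compared libraries did not overlap, so absence of overlap there is not separate evidence. In young hosts the progenitor state was the more accessible: 19 of the 57 peaks were higher in Tprog than in Tterm and 1 was lower, where 13.9% of all peaks were higher and 12.6% lower (26.5% called). The rises included 6 of the 8 Jun peaks, 4 of 10 Fos peaks and 4 of 9 Batf3 peaks, and the fall was at the start site of Jund. In aged hosts 5 peaks were higher and 7 lower, against 8.88% and 11.2% of all peaks (20.1% called). The median difference over the 57 peaks was 0.22 in young hosts (0.01 over all peaks) and -0.004 in aged hosts (0.01 over all peaks). After quantile normalization the aged counts were 5 higher and 3 lower, and the 1000 strongest peaks of the table had a median of -0.14 in that contrast. Without replicate 1 the counts called were 2 in aged and 11 in young hosts, and without replicate 2 they were 6 and 16.

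The clearest state difference at a Jun gene lay far upstream of Jun itself, whose protein is the main Jun partner of the Fos proteins. Jun peak 5 (chr4:95099778-95101058), centred 48.20 kb upstream, had 257 and 291 normalized reads in the young OTC Tprog libraries, 174, 135 and 143 in Ttran and 133, 88.1 and 76.5 in Tterm. The aged OTC libraries gave 345 and 291 for Tprog, 155 and 182 for Tterm, 271 and 194 for Ttran and 206 and 197 for Ttad. Tprog was highest in both ages with no overlap with Tterm, by 1.50 ± 0.19 (SE; adjusted p = 6.81e-10) in young and 0.91 ± 0.21 (SE; adjusted p = 0.00054) in aged hosts in limma. The weaker peak 4 (chr4:95096777-95097213), 44.77 kb upstream, showed a larger fold on fewer reads: 91.0 and 79.6 in young OTC Tprog against 10.1, 10.2 and 17.998 in Tterm. Its difference was 2.69 ± 0.43 (SE; adjusted p = 3.83e-07) in young and 1.60 ± 0.47 (SE; adjusted p = 0.00828) in aged hosts, where the libraries read 87.2 and 95.8 and 30.5 and 28.4. In aged hosts the call at peak 4 was lost without either replicate and that at peak 5 without replicate 1.

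Over the start site of Jun, peak 2 rose in young Tprog by 0.22 ± 0.06 (SE; adjusted p = 0.00121) and was -0.03 in aged hosts (adjusted p = 0.803, limma). Junb, a Jun protein that often opposes Jun, had a single peak over its start site (chr8:84978251-84980361). In young OTC libraries it read 2592 and 2819 in Tprog and 2199, 2226 and 2200.2 in Tterm, without overlap, a rise of 0.29 ± 0.05 (SE; adjusted p = 1.18e-05). In aged OTC libraries Tprog (2557 and 2463) and Tterm (2523 and 2868) overlapped, with a difference of -0.10 ± 0.06 (SE; adjusted p = 0.259) that did not pass the test. Jund, the most constantly expressed Jun protein, went the other way at its start site (peak 2, chr8:70697441-70699616), lower in Tprog by -0.19 ± 0.06 (SE; adjusted p = 0.00831) in young and -0.21 ± 0.06 (SE; adjusted p = 0.00877) in aged hosts. The 1000 strongest peaks of the table hold Jun peak 2, Junb peak 1 and Jund peak 2. They also hold Fosb peak 5, Fosl2 peak 2 and Batf peak 6, described below. In this contrast 286 of the 1000 were higher and 153 lower in young hosts, with a median of 0.06. In aged hosts 39 were higher and 390 lower, with a median of -0.14.

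Fos is an immediate early gene. Its peak 4 (chr12:85446778-85447692), 26.66 kb upstream of the start site, had the smallest adjusted p of the 57 in the contrast of Tprog with Tterm in both ages. In young OTC libraries it read 1103 and 925 in Tprog, 709, 716 and 794 in Ttran and 477, 517 and 490.4 in Tterm. In aged OTC libraries it read 1051 and 1008, 892 and 772 and 607 and 600.3 in the same states and 758 and 743 in Ttad. The order was Tprog, Ttran, Tterm in both ages without overlap. The difference between Tprog and Tterm was 1.03 ± 0.09 (SE; adjusted p = 6.34e-17) in young and 0.77 ± 0.10 (SE; adjusted p = 8.55e-10) in aged hosts. Over the start site, Fos peak 7 differed by 0.04 ± 0.07 (SE; adjusted p = 0.78) and -0.10 ± 0.08 (SE; adjusted p = 0.407). Fos peak 1 was also higher in Tprog in both ages, by 0.98 (adjusted p = 6.44e-06) and 0.59 (adjusted p = 0.0209, limma).

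Fosb, a close relative of Fos, was higher in young Tprog at peak 5 (chr7:19319396-19321810), 10.56 kb upstream, by 0.39 ± 0.06 (SE; adjusted p = 2.15e-07). The libraries there read 1719 and 1659.9 in Tprog and 1269, 1272 and 1326 in Tterm. In aged hosts the same peak read 1746 and 1831 and 1794 and 1708, which overlap. Fosl2, a Fos protein without a transactivation domain, was lower in aged Tprog at its start site (peak 2, chr5:32134999-32136571), with 1878 and 2005 against 2286 and 2388 in Tterm, a difference of -0.27 ± 0.07 (SE; adjusted p = 0.00202). In young hosts 0 of its 7 peaks passed the test (limma; 1 at an unadjusted p under 0.05, and 0 with edgeR).

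Batf, needed for effector CD8 T cells, was lower in aged Tprog at peak 6 inside the gene. The aged OTC libraries read 1392 and 1353 in Tprog, 1736 and 1789.8 in Tterm and 1903 and 1929 in Ttran, a difference from Tterm of -0.36 ± 0.07 (SE; adjusted p = 6.39e-05). In young hosts Tprog and Tterm overlapped at this peak. Batf3, known for its part in CD8 T cell memory, was higher in young Tprog at peak 3, which read 653 and 572 in Tprog and 384, 386 and 326 in Tterm, by 0.74 ± 0.11 (SE; adjusted p = 2.01e-08). In aged hosts Tprog (569.5 and 657) and Tterm (625 and 657) overlapped, and 0 of the 9 Batf3 peaks passed the test (limma; also 0 at an unadjusted p under 0.05 and with edgeR). Atf3, a stress-induced member, was higher in young Tprog at peak 3 (chr1:191193334-191194493) by 0.25 and lower in aged Tprog by -0.23 (adjusted p = 0.00743 and 0.0338, limma).

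The same contrast was made in the perturbed cells. With the Zfp219 guide 20 peaks were higher and 3 lower in young Tprog (over all peaks, 13.3% and 13.6%), and 13 were higher and 1 lower in aged Tprog (8.38% and 10.4%). With the Dusp5 guide the counts were 24 higher and 1 lower in young (15.3% and 14.5%) and 8 higher and 3 lower in aged hosts (10.3% and 12.6%). Differences between guides in the state contrast were not tested.

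**Figure D3:**
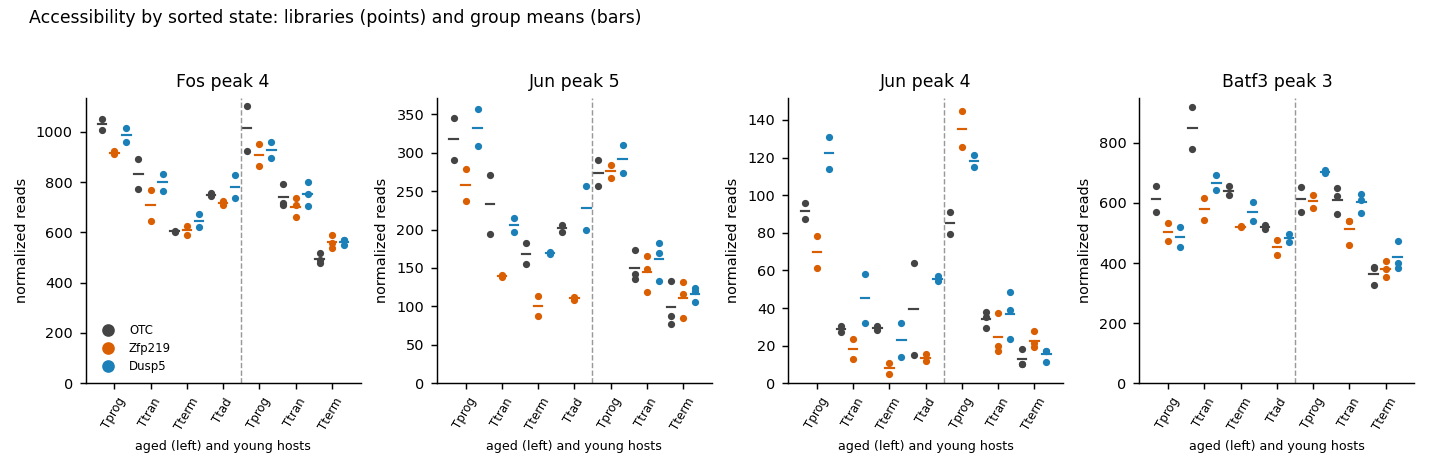
Normalized reads of 4 peaks with state differences, with libraries as points and group means as bars, aged hosts left of the dashed line and colours giving the guide. Fos peak 4 and Jun peaks 4 and 5 are highest in Tprog in both ages, while Batf3 peak 3 is lowest in young Tterm.

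Whether the state difference itself depended on host age was tested as an interaction. It passed at 6 of the 57 peaks, all more negative in aged hosts, where 2.32% of all peaks were called, 0.512% more positive and 1.81% more negative (limma; at an unadjusted p under 0.05, 0 and 16 of the 57, and 0 and 8 with edgeR). The largest was Batf3 peak 3 at -0.81 ± 0.16 (SE; adjusted p = 0.0005), followed by Atf3 peak 3 at -0.48 ± 0.11 (SE; adjusted p = 0.00514) and Junb peak 1 at -0.39 ± 0.08 (SE; adjusted p = 0.00115). Fosb peak 5 gave -0.36 ± 0.09 (SE; adjusted p = 0.0129), Batf peak 6 -0.34 ± 0.10 (SE; adjusted p = 0.044) and Fosb peak 3 -0.28 ± 0.08 (SE; adjusted p = 0.0487). The 1000 strongest peaks of the table, which hold 7 of the 57, had a median of -0.21 in this contrast against -0.03 for all peaks. After quantile normalization only 1 call remained, that of Batf3 peak 3, and the share of higher calls over all peaks went from 22.1% to 46.8%. Without replicate 1, and likewise without replicate 2, 1 call was left.

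Ttran, positive for both sort markers, was higher than Tterm at more peaks of Batf3 than of any other of the 9 genes, in both ages. Over all 57 peaks, 27 were higher and 0 lower in young Ttran than in Tterm, where 5.02% of all peaks were higher and 3.36% lower (limma; at an unadjusted p under 0.05, 32 were higher and 1 lower). These include all 9 Batf3 peaks, 5 of the 6 Fosb peaks and 5 of the 6 Atf3 peaks. In aged hosts 7 were higher and 0 lower, where 1.87% of all peaks were higher and 1.35% lower (limma; unadjusted 16 and 2). Batf3 peak 2 (chr1:191099893-191100864), 1.96 kb inside the gene, read 373, 381 and 402 in young OTC Ttran, 284 and 264 in Tprog and 192, 199.7 and 183 in Tterm. The aged OTC values were 693 and 678 for Ttran, 388 and 363 for Tprog and 403 and 441 for Tterm. Ttran stood above both other states in both ages. The difference from Tterm was 1.01 ± 0.13 (SE; adjusted p = 6.46e-09) in young and 0.70 ± 0.16 (SE; adjusted p = 0.00376) in aged hosts. Against Tprog, 12 peaks were higher and 4 lower in aged Ttran (over all peaks, 9.99% and 6.98%) and 8 were higher and 7 lower in young Ttran (9.07% and 7.82%), with Fos peak 4 and Jun peak 4 among the lower ones in both.

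Ttad, sorted from aged hosts only, differed from Tterm at few of these peaks. Of the 57, 1 was higher and 1 lower, where 7.28% of all peaks were called, 3.02% higher and 4.26% lower. Fos peak 4 was higher by 0.31 ± 0.10 (SE; adjusted p = 0.0328), a call lost without either replicate and with a fit to the compared groups alone. Batf3 peak 7, centred 20.51 kb from its start site, read 70.4 and 44.4 in Ttad against 144 and 135 in Tterm, lower by -1.30 ± 0.32 (SE; adjusted p = 0.00454), and lost the call without replicate 2.

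Against Tprog, Ttad was higher at 2 peaks and lower at 4, where 6.55% of all peaks were called, 3.82% higher and 2.73% lower. Fos peak 4 was lower by -0.46 ± 0.10 (SE; adjusted p = 0.00102), so it lay between Tprog and Tterm, and Batf3 peak 5 was lower by -0.72 ± 0.20 (SE; adjusted p = 0.0155). Jun peaks 4 and 5 were lower by -1.51 and -0.65 (adjusted p = 0.0344 and 0.0441, limma), and the Ttad libraries at peak 4 were far apart, at 15.1 and 64.1. Fosl2 peak 2 and Batf peak 6 were higher by 0.27 and 0.22 (adjusted p = 0.00686 and 0.0481). The 1000 strongest peaks had a median of 0.14 in this contrast, and after quantile normalization 3 of the 57 were called, all lower. Without replicate 1 the count was 0, and without replicate 2 it was 3.

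Against Ttran, 1 peak was higher in Ttad and 10 were lower, where 3.02% of all peaks were higher and 4.72% lower. Batf3 made up 6 of the 10, with peak 2 lower by -1.09 ± 0.16 (SE; adjusted p = 5.19e-07), where Ttad read 342 and 303.

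The second question was the host. Control cells from aged hosts were more accessible than those from young hosts at most of these peaks: averaged over Tprog, Ttran and Tterm, 30 of 57 peaks were higher and 4 lower in aged hosts, where 17.3% of all peaks were higher and 19.1% lower (36.5% called). The rises took in all 9 peaks of Batf3 and all 6 of Fosb, along with 3 of 8 Jun peaks, 3 of 10 Fos peaks, 3 of 8 Batf peaks, 3 of 6 Atf3 peaks and the start-site peaks of Junb and Jund. Fosl2 had 1 peak higher and 2 lower, and Jun peak 7 and Batf peak 2 made up the rest of the falls. The median difference over the 57 peaks was 0.19, against 0.00 over all peaks. Without replicate 2 the count was 22, with 20 higher and 2 lower. After quantile normalization 27 of the 57 were higher and 4 lower.

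Of the called peaks, the change was largest in size at Fosb. Its peak 1 (chr7:19300554-19302562), just past the end of the gene and 4390 bases from Rtn2, read 885 and 814 in aged OTC Tprog, 963 and 961 in Ttran and 691 and 739.6 in Tterm. In young OTC libraries it read 403 and 321, 358, 306 and 399 and 306, 289 and 354 in the same states. The lowest aged library lay above the highest young one in each state, and the mean difference was 1.29 ± 0.07 (SE; adjusted p = 1.48e-29). By state it was 1.24 in Tprog, 1.45 in Ttran and 1.18 in Tterm. Peak 2 (chr7:19303757-19304475), inside the gene, spanned 419 to 475 (median 434, n = 6) in aged and 164 to 276 (median 225, n = 8) in young OTC libraries, a difference of 0.99 ± 0.09 (SE; adjusted p = 2.56e-16). Over the start site, peak 3 (chr7:19307272-19310523) rose by less, 0.21 ± 0.03 (SE; adjusted p = 2.4e-07).

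At Batf3 the rise ran along the whole locus, from 0.29 at peak 9 (adjusted p = 0.045, limma) to 1.20 at peak 7 (adjusted p = 2.17e-08). Peak 2 spanned 363 to 693 (median 422, n = 6) in aged and 183 to 402 (median 274, n = 8) in young OTC libraries of the 3 states. Aged and young libraries did not overlap within any state, and the mean difference was 0.81 ± 0.09 (SE; adjusted p = 2.24e-13). Peak 4 (chr1:191104580-191105089) rose by 0.85 ± 0.09 (SE; adjusted p = 9.07e-13). In single states the difference at peak 2 was 0.45 in Tprog, 0.83 in Ttran and 1.14 in Tterm, each called.

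At Jun the peaks that rose were peaks 5 and 8 upstream, by 0.54 (adjusted p = 7.18e-05, limma) and 0.63 (adjusted p = 0.00781), and peak 1 downstream. Peak 1 (chr4:95035093-95036877), centred 16.24 kb past the start site, spanned 415 to 660.4 (median 468, n = 6) in aged and 237 to 287 (median 252, n = 8) in young OTC libraries. These sets did not overlap, and the difference was 0.88 ± 0.08 (SE; adjusted p = 7.91e-16). The start-site peak 2 gave 0.04 ± 0.03 (SE; adjusted p = 0.435). Jund peak 2 rose in every state, by 0.29 ± 0.03 (SE; adjusted p = 7.63e-12) on average, and Junb by 0.12 (adjusted p = 0.00139, limma). Of the Fos peaks, the start-site peak 7 differed by 0.09 ± 0.04 (SE; adjusted p = 0.0907), while peak 2 rose by 0.89 ± 0.13 (SE; adjusted p = 1.08e-08).

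The count was largest in Tterm. There 28 of 57 peaks were higher and 0 lower in aged hosts (limma; 35 and 0 at an unadjusted p under 0.05), where 10.2% of all peaks were higher and 8.77% lower. In Ttran 18 were higher and 1 lower (over all peaks, 8.73% and 9.58%), and in Tprog 10 were higher and 3 lower (6.36% and 9.04%). In the mean over the 3 states the CD8 T cell markers were lower in aged hosts at 17 of 44 peaks and higher at 4, and the myeloid markers lower at 5 of 9 and higher at 0. Their part in the result was not tested.

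The third question was the Zfp219 guide. In aged hosts its libraries were less accessible than OTC libraries at most of these peaks: averaged over 4 states, 31 of 57 peaks were lower and 2 higher, where 13.7% of all peaks were lower and 12.1% higher (25.8% called). The falls included 8 of 9 Batf3 peaks, 6 of 8 Jun peaks, 4 of 6 Fosb peaks, 4 of 7 Fosl2 peaks and 3 of 6 Atf3 peaks, while Fos (2 lower, 1 higher of 10) and Batf (2 of 8) took less part. The start-site peaks of Junb and Jund were lower as well, the latter by -0.11 (adjusted p = 0.00379, limma), which became 0.03 after quantile normalization. The median difference was -0.17 over the 57 peaks and 0.01 over all peaks. The 1000 strongest peaks of the table hold 7 of the 57, Junb peak 1 and Jund peak 2 among them. Of these 1000, 54 were higher and 448 lower in this contrast, with a median of -0.07. This comparison uses the aged OTC libraries that also enter the comparison of ages, so the comparisons are not independent. Without replicate 1 the count was 21 and without replicate 2 it was 19, all lower. After quantile normalization 25 of the 57 were lower and 2 higher.

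Batf3 peak 2 had the smallest adjusted p. In aged OTC libraries its Tprog values were 388 and 363, those of Ttran 693 and 678, of Tterm 403 and 441 and of Ttad 342 and 303. In aged Zfp219 libraries it read 245 and 241, 338 and 299, 171 and 217 and 153 and 171 in the same order. No state overlapped, and the mean difference was -0.96 ± 0.08 (SE; adjusted p = 3.44e-18). By state it was -0.63 (adjusted p = 0.0118) in Tprog, -1.12 (5.15e-07) in Tterm, -1.11 (6.19e-08) in Ttran and -0.99 (3.96e-06) in Ttad, all from limma. The neighbouring peaks moved together: peak 1 (chr1:191097030-191098007), just before the start site, fell by 0.62 ± 0.07 (SE; adjusted p = 4.08e-11), and peak 4 gave -0.71 ± 0.09 (SE; adjusted p = 1.13e-10). Peak 8 (chr1:191123666-191124952), centred 25.89 kb from the start site, gave -0.69 ± 0.10 (SE; adjusted p = 8.4e-09).

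Jun peak 1, downstream of Jun, had aged OTC values of 479 and 485 for Tprog, 417 and 415 for Tterm, 660.4 and 458 for Ttran and 533 and 462 for Ttad. With the Zfp219 guide it read 270.1 and 407, 299 and 261, 236 and 245 and 266 and 263 in that order. All 4 states were lower without overlap, by -0.80 ± 0.08 (SE; adjusted p = 4.53e-15) on average. The single-state values ran from -0.54 in Tprog to -1.19 in Ttran. Jun peak 5, one of the Tprog peaks, was lower too, by -0.66 ± 0.11 (SE; adjusted p = 4.66e-07), and the start-site peak 2 by -0.14 ± 0.03 (SE; adjusted p = 0.000352).

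**Figure D4:**
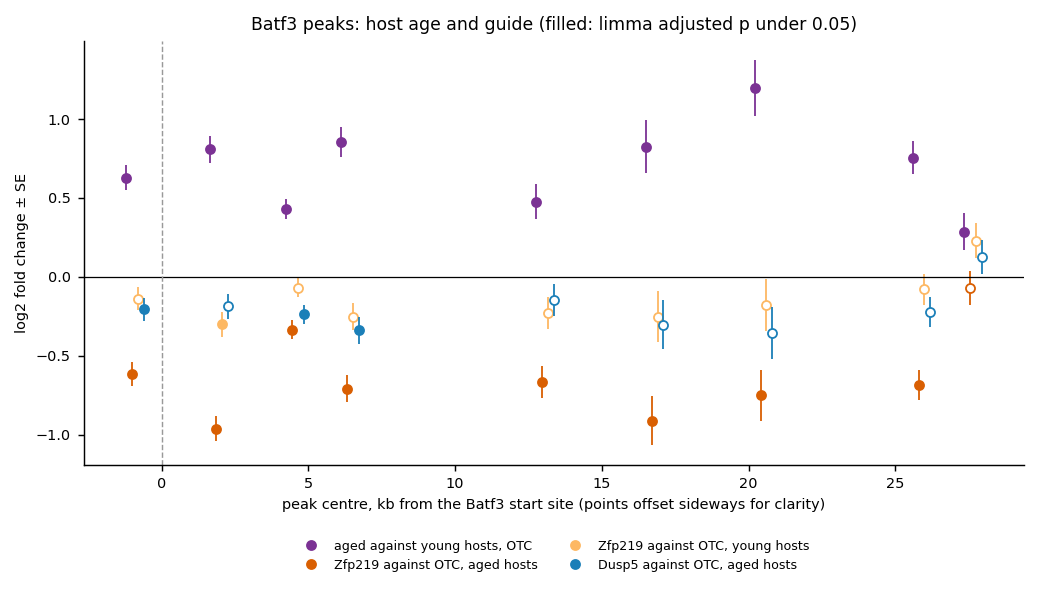
log2 fold change with its SE of the 9 Batf3 peaks against the distance of the peak centre from the Batf3 start site, for host age in OTC cells and for the guides. Filled points passed limma at an adjusted p under 0.05. All 9 points for age lie above 0 and the 9 for Zfp219 in aged hosts lie below it.

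By state, 22 peaks were lower and 1 higher in aged Ttran, where 8.29% of all peaks were lower and 5.92% higher. In Tterm 19 were lower and 0 higher (2.51% and 1.06% of all), in Ttad 8 and 0 (4.56% and 3.66%), and in Tprog 2 and 0 (1.45% and 1.11%). The 2 in Tprog were Batf3 peak 2 and Jun peak 1. Whether the effect differed between states was not tested. In the mean over the 4 aged states the CD8 T cell markers had 5 peaks higher and 4 lower of 44, the myeloid markers 3 higher and 0 lower of 9, and the melanoma markers 0 higher and 4 lower of 7. Their part in the result was not tested.

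In young hosts the Zfp219 guide gave fewer changes: 0 peaks were higher and 10 lower, where 1.92% of all peaks were higher and 5.15% lower (7.07% called, limma). At an unadjusted p under 0.05, 3 were higher and 20 lower, and edgeR called 0 higher and 13 lower. Junb, the clearest, read 2592 and 2819 in young OTC Tprog, 2567, 2505 and 2658 in Ttran and 2199, 2226 and 2200.2 in Tterm. With the Zfp219 guide it read 2417 and 2296, 1983, 2166 and 1973 and 2093, 2041 and 2123. Each state was lower without overlap, by -0.21 ± 0.03 (SE; adjusted p = 4.53e-07) on average, and by -0.34 in Ttran. The 1000 strongest peaks of the table hold Junb peak 1 and Batf peak 6. Of these 1000, 28 were higher and 387 lower in this contrast, with a median of -0.085. Batf peak 6 fell by 0.18 ± 0.04 (SE; adjusted p = 0.000569) and Fosl2 peak 4 (chr5:32154832-32155981), 18.93 kb inside the gene, by 0.41 ± 0.14 (SE; adjusted p = 0.0455). The Fosl2 peak lost the call whichever replicate was left out, and Batf peak 6 lost it without replicate 2 and after quantile normalization, where it was -0.10.

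Of the Batf3 peaks only peak 2 passed the test in young hosts, at -0.30 ± 0.08 (SE; adjusted p = 0.00925). Of the 8 Jun peaks 0 did (limma; 1 at an unadjusted p under 0.05, and 0 with edgeR), and Jun peak 1 read 237 to 287 (median 252, n = 8) in young OTC and 235 to 351 (median 252, n = 8) in young Zfp219 libraries. By state, 5 peaks were lower and 0 higher in young Ttran (over all peaks, 4.23% and 1.65%) and 0 were called in Tprog (0.997%; unadjusted 1 higher and 9 lower) or in Tterm (0.275%; unadjusted 6 higher and 5 lower), all from limma. After quantile normalization 2 peaks were higher and 7 lower over the 3 states. Without replicate 1 the count over the 3 states was 3, and without replicate 2 it was 6.

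The difference between the ages in the Zfp219 effect was tested directly over Tprog, Ttran and Tterm. It passed at 14 of the 57 peaks, all more negative in aged hosts, where 9.11% of all peaks were called, 4.09% more positive and 5.01% more negative (limma). At an unadjusted p under 0.05, 0 were more positive and 20 more negative, and edgeR called 0 and 16. The 14 were 6 of the 8 Jun peaks, 6 of the 9 Batf3 peaks, Fosb peak 1 and Atf3 peak 1. Jun peak 1 differed by -0.82 ± 0.12 (SE; adjusted p = 1.86e-07), Batf3 peak 2 by -0.65 ± 0.12 (SE; adjusted p = 6.42e-05) and Batf3 peak 1 by -0.54 ± 0.11 (SE; adjusted p = 0.000357). Jun peak 8 (chr4:95127815-95128559), 75.97 kb upstream, gave -1.12 ± 0.28 (SE; adjusted p = 0.00418) and Jun peak 5 -0.63 ± 0.16 (SE; adjusted p = 0.0057). At Jun peak 8 the aged OTC libraries of these 3 states read 46.8 to 113 (median 88.6, n = 6). The aged Zfp219 ones read 31.0 to 49.7 (median 45.5, n = 6). Young OTC libraries read 25.3 to 99.2 (median 57.7, n = 8). Young Zfp219 libraries, at 37.6 to 112 (median 44.0, n = 8), overlapped with them. Without replicate 2 the count was 3 and without replicate 1 it was 6. Jun peak 1 and Batf3 peak 2 kept the call without any one replicate, while Jun peak 8 lost it without replicate 1 or 2, Jun peak 5 without replicate 1 and Batf3 peak 1 without replicate 2.

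**Figure D5:**
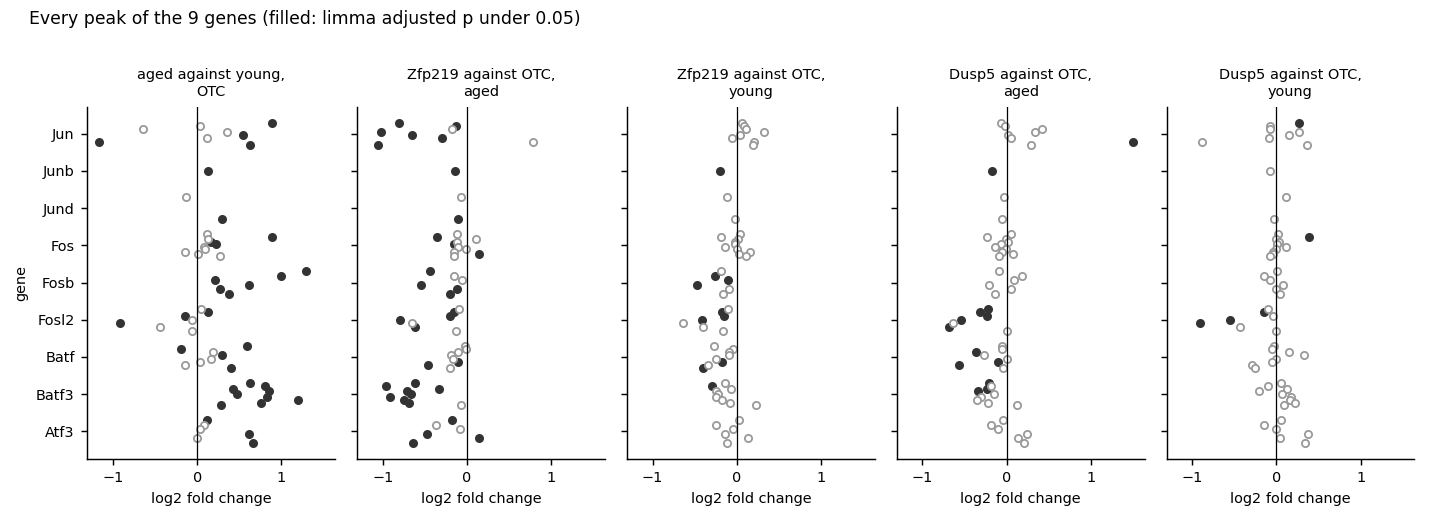
log2 fold change of every peak, 1 row of points per gene, for host age and for each guide in each host age. Filled points passed limma at an adjusted p under 0.05. Batf3 and Fosb points lie to the right for host age, and the 8 called Batf3 and 6 called Jun points lie to the left for Zfp219 in aged hosts.

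The fourth question was the Dusp5 guide, aimed at the Erk phosphatase. In aged hosts 12 of 57 peaks were lower and 1 higher, where 7.87% of all peaks were lower and 4.35% higher (12.2% called). The change centred on Fosl2, with 5 of its 7 peaks lower, followed by 3 of 8 Batf peaks, 3 of 9 Batf3 peaks and Junb. The counts were 0 for Fos, Fosb, Jund and Atf3 (limma, and 0 with edgeR; at an unadjusted p under 0.05, 3 Fosb and 2 Atf3 peaks). The median difference was -0.06 over the 57 peaks and 0.01 over all. After quantile normalization 9 were lower and 5 higher, with 10 of the 13 calls kept. Without replicate 1 the count was 4, and without replicate 2 it was 6.

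Fosl2 peak 2, over the start site, read 1878 and 2005 for aged OTC Tprog, 2286 and 2388 for Tterm, 2205 and 2241 for Ttran and 2445 and 2237 for Ttad. With the Dusp5 guide it read 1756 and 1931, 1633 and 1907, 1642 and 1748 and 1918 and 1659 in that order. Tprog overlapped and the other 3 states were lower without overlap, for a mean of -0.32 ± 0.03 (SE; adjusted p = 1.55e-11). The single-state values were -0.39 in Ttran, -0.41 in Tterm and -0.39 in Ttad, each called. The 1000 strongest peaks had a median of -0.11 in this contrast, and after quantile normalization Fosl2 peak 2 was still lower, by -0.18 (adjusted p = 4.34e-05, limma).

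Junb spanned 2463 to 3011 (median 2751, n = 8) in aged OTC and 2323 to 2510.1 (median 2411, n = 8) in aged Dusp5 libraries, lower in each state without overlap, by -0.17 ± 0.03 (SE; adjusted p = 1.09e-05). That call did not hold under quantile normalization, where the difference was -0.04 (adjusted p = 0.44, limma). Batf3 peaks 3 and 4 were lower by -0.24 ± 0.06 (SE; adjusted p = 0.00236) and -0.34 ± 0.09 (SE; adjusted p = 0.00343), without overlap in any state, and both lost the call without either replicate. Batf peak 6, at -0.11 (adjusted p = 0.0377), became 0.00 after quantile normalization.

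By aged state the Dusp5 guide gave 1 higher and 4 lower in Ttran (over all peaks, 1.36% and 2.44%), 0 and 3 in Tterm (1.55% and 2.56%), 0 and 2 in Ttad (1.21% and 1.67%) and 0 in Tprog (0.83% of all peaks called; limma, unadjusted 1 higher and 6 lower). In the mean over aged states the CD8 T cell markers had 10 of 44 peaks lower and 0 higher, and the melanoma markers 3 of 7 lower and 0 higher. Their part in the result was not tested. The OTC libraries are shared with the Zfp219 comparison, where Fosl2 peak 2 was lower by -0.16 and Junb by -0.14 in aged hosts.

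In young hosts the Dusp5 guide gave 2 higher and 3 lower peaks, where 3.82% of all peaks were called, 1.8% higher and 2.02% lower. The 3 lower ones were again at Fosl2: peak 2 at -0.15 ± 0.04 (SE; adjusted p = 0.0053), peak 4 at -0.55 ± 0.14 (SE; adjusted p = 0.00788) and the weak peak 5 at -0.91 ± 0.28 (SE; adjusted p = 0.0448). At peak 4 the young OTC libraries of the 3 states read 109 to 150.4 (median 135, n = 8) and the Dusp5 ones 61.7 to 144 (median 88.0, n = 8). Jun peak 1 and Fos peak 2 were higher by 0.26 and 0.39 (adjusted p = 0.0328 and 0.0484, limma). No single young state had a called peak (0.782% of all peaks called in Tprog, 0.646% in Ttran and 0.273% in Tterm; limma). At an unadjusted p under 0.05 there were 5 higher and 4 lower in Tprog, 2 and 6 in Ttran, and 5 and 4 in Tterm. Without replicate 1 or 2 the count in the mean over states was 0 too, and without replicate 3 it was 1.

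Between ages the Dusp5 effect differed at 5 of 57 peaks, 2 more positive and 3 more negative in aged hosts, where 4.0% of all peaks were called, 1.27% and 2.73%. Batf3 peak 3 differed by -0.41 ± 0.09 (SE; adjusted p = 0.00181), a call lost without replicate 1 or 2. Its aged libraries spanned 569.5 to 919.8 (median 657, n = 6) with OTC and 452 to 692 (median 571, n = 6) with Dusp5, and its young ones 326 to 653 (median 567, n = 8) and 385 to 708 (median 588, n = 8). Without replicate 1 the count was 0, and without replicate 2 it was 1.

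Other genes of the pathway were taken from a fixed list. Of 18 further AP-1 and related leucine zipper genes, 17 had peaks, 121 in all. Host age moved 27 of these up and 31 down (over all peaks, 17.3% and 19.1%). Zfp219 moved 16 up and 20 down in aged hosts (12.1% and 13.7%) and 2 up and 11 down in young hosts (1.92% and 5.15%). Dusp5 moved 5 up and 17 down in aged hosts (4.35% and 7.87%) and 1 up and 4 down in young hosts (1.8% and 2.02%). In Tprog against Tterm 23 were higher and 17 lower in aged hosts (over all peaks, 8.88% and 11.2%). In young hosts 33 were higher and 13 lower (13.9% and 12.6%). Ttad was higher than Tterm at 16 and lower at 5 (over all peaks, 3.02% and 4.26%), and higher than Tprog at 9 and lower at 1 (3.82% and 2.73%). The list's median difference for host age was 0.001, against 0.002 over all peaks, and for Zfp219 in aged hosts it was -0.002 against 0.006. Bach2, a repressor that competes with AP-1 and is known from progenitor T cells, held 35 of the 121 peaks and was singled out after its values were seen. Bach2 made up 15 of the 23 peaks of the list that were higher in Tprog in aged hosts, and was lower at 4. In young hosts it made up 23 of the 33 higher ones, so the rises of the list in Tprog came largely from this gene. It also made up 20 of the 27 peaks higher in aged than young hosts. With the Zfp219 guide in aged hosts 11 Bach2 peaks were lower and 3 higher.

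The 12 kinase genes upstream of AP-1 had 73 peaks. Host age moved 8 up and 20 down, Zfp219 13 up and 8 down in aged hosts and 0 up and 2 down in young hosts, and Dusp5 1 up and 9 down in aged and 0 up and 5 down in young hosts. Irf4, the partner of Batf, had 12 peaks, of which 3 were higher and 1 lower in aged hosts, 4 were lower with Zfp219 and 2 with Dusp5 in aged hosts, and 0 were higher with either guide. The kinase list had a median of -0.07 for host age and -0.02 for Zfp219 in aged hosts, and Irf4 of 0.10 and -0.11. These counts stand beside the shares of all peaks given above for the same comparisons.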

How the data were processed

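ATAC-seq was measured in 48 libraries of sorted CD8 T cells in 21 groups, taken from the sample names. The values deposited for 53868 peaks are a signal, the authors' read counts divided by a size factor per library; whole reads were recovered for 100% of values within 0.01 reads. Per the submitters' processing notes Bowtie2 2.2.9, Picard 2.8.0, SAMtools 1.3.1, MACS2 2.1.1, DESeq2 1.28.1 and the mm10 build were used, with roles not stated. The handling of duplicates and of the insertion offset, and whether peaks were called on pooled libraries, is not given in the sources used here.

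Peaks were assigned to RefSeq genes (GRCm38.p6). limma 3.58.1 (R 4.3.3) with a trend was fitted to log2(value + 1) with 1 mean per group and Benjamini-Hochberg adjustment over all peaks, in 12 comparisons and 30 single-state ones. The fit was tested on simulated data with 200 of 53868 peaks changed 2-fold: for Zfp219 it recovered 92% in aged (10 false calls) and 93% in young hosts (9). The simulated libraries had independent noise around a common mean for each peak. These rates therefore do not describe changes under 2-fold or the spread between pools of mice. edgeR 4.0.16 with TMM factors on the recovered reads was an alternative. Other alternatives were quantile normalization, rescaling by the median of ratios, adding 8 before the log, dropping 25% of peaks with the lowest mean, a 50 kb limit, body peaks only, only the groups compared, 1 value per group, a replicate block and leaving out each replicate. Peaks given first were the strongest body peak of each gene and, per comparison, up to 5 called peaks with the smallest adjusted p and no overlap. For a difference between ages, no overlap does not mean that the libraries were apart within each age. Other peaks given values were chosen after their values were seen. The members, lists and tests were chosen with earlier results of these data known. Same-numbered libraries did not deviate together (correlations of -0.015 to 0.015 over 66 pairs of groups in aged hosts and -0.014 to 0.010 over 36 in young), so numbers were not used to pair them. No library was left out of the fit. The genes most similar to Junb and the names of the B cell markers without a peak are not reported here.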

Additional observations from a re-analysis of the deposited data

Results flagged for a closer look

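The test of a difference between the host ages (limma, adjusted over all peaks) passed at 14 peaks for the Zfp219 effect, 5 for the Dusp5 effect and 6 for the difference between Tprog and Tterm. The values here are 11 among them, at most 5 per comparison, picked by the smallest adjusted p and a rule on overlap. For a difference between ages that rule does not mean that the libraries were apart within each age. Aged Tprog and Tterm libraries overlapped at Batf3 peak 3, Junb and Fosb peak 5. The Zfp219 effect was more negative in aged hosts by -0.82 at Jun peak 1, -0.65 at Batf3 peak 2, -0.54 at Batf3 peak 1, -1.12 at Jun peak 8 and -0.63 at Jun peak 5 (log2). The Dusp5 effect was more negative in aged hosts by -0.41 at Batf3 peak 3. The difference between Tprog and Tterm in OTC cells was more negative in aged hosts by -0.81 at Batf3 peak 3, -0.39 at Junb, -0.48 at Atf3 peak 3, -0.36 at Fosb peak 5 and -0.34 at Batf peak 6. Host age goes with the numbered set of libraries, so they cannot be told apart in any of these.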

How the results depend on the processing

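Of 464 recomputed values for peaks given by the rule, 404 kept their call, 60 lost it and 0 changed sign. Of those lost, 12 were with 1 value per group, 10 after quantile normalization, 1 with edgeR, 1 with only the compared groups and 36 without a replicate. The peaks given by the rule were picked in these same data as called and without overlap, so this tally does not describe other calls. Outside them, Jund peak 2 for Zfp219 and Batf peak 6 for Dusp5, both in aged hosts, changed sign after quantile normalization. Counts of called peaks were as follows where they moved by over 1.5 times. With body peaks only, of 19, they were 5 and 6 for Tprog against Tterm in aged and young hosts, 0 for Ttad against Tterm, 2 for Ttad against Tprog, 12 for host age, 12 for Zfp219 in aged hosts, 2 for Dusp5 in young hosts, and 4 and 3 for the Zfp219 and Dusp5 effects between ages, since fewer peaks were tested. With 1 value per group they were 31 for Tprog against Tterm in young hosts and 20 and 2 for Zfp219 in aged and young hosts. They were 5 and 1 for Dusp5, and 3 and 0 between ages. In that setting the state contrasts used the groups of all 3 guides and not OTC alone, so their counts are not for the same samples. After quantile normalization the counts were 3 for Ttad against Tprog, 3 for Dusp5 in young hosts and 1 for the state difference between ages. The last was 11 with only the groups compared. Apart from body peaks and fewer libraries, the cause was not tested. Leaving out a replicate gave 2 to 6 for Tprog against Tterm in aged hosts, 11 to 18 in young hosts, 0 to 1 for Ttad against Tterm, 0 to 3 for Ttad against Tprog, 22 to 30 for host age, 19 to 21 and 3 to 8 for Zfp219 in aged and young hosts, 4 to 6 and 0 to 1 for Dusp5, 3 to 14 and 0 to 4 for their effects between ages, and 1 to 5 for the state difference between ages. A lone library left in a group was assumed to vary like the others.

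With replicate number as a block, which the numbers do not justify as a pairing, the counts in the order of the report's comparisons were 12 and 20 for Tprog against Tterm, 2 and 6 for Ttad, 33 for host age, 33 and 10 for Zfp219, 13 and 4 for Dusp5, 13 and 5 between ages and 5 for the state difference between ages. The median over all peaks moved by at most 0.04 under any scaling. Depth limits the 6 peaks with a mean under 50 reads, and groups of 2 libraries limit the comparisons in aged hosts and in young Tprog.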
